A study of Mus musculus with 12 samples.

Results

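The comparison described here is that of sensory neuron exosomes carrying miR-21 with exosomes carrying a GFP reporter, in peritoneal macrophages (PMs) that received no oligonucleotide. Its members were chosen by the sample labels alone: the 2 arrays of PMs labelled with lipofectamine and neuronal miR-21 and the 2 arrays labelled with lipofectamine and the GFP reporter, 4 of the 12 arrays of the series. The remaining 8 arrays hold PMs transfected with a scrambled oligonucleotide or with antagomir-21, an inhibitor of miR-21, each given the same pair of exosomes. All PMs came from cultures of mouse peritoneal macrophages, which the study's methods take from C57BL/6 animals, and both lipofectamine groups share the transfection reagent. The labels name only the reagent for these groups, and they were read as cells with no oligonucleotide. The neurons that supplied the exosomes overexpressed miR-21 or GFP. The vector used, the amount of exosomes and the length of exposure are not given in the sources used here, so the groups stand for a whole exosome preparation and not for miR-21 alone. Replicates are separate arrays of a group. The methods describe biological replicates collected independently, but the labels do not tie an array to an animal or a culture, so that p-values measure the spread between these arrays.

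Exosomes are small membrane vesicles that cells release and that can carry microRNAs into other cells. A microRNA guides the silencing machinery to messenger RNAs through its seed, the bases near its 5′ end that pair with the target, and lowers the stability and translation of that RNA. In macrophages miR-21 is known for its targets *Pdcd4* and *Spry2* and for its links to inflammation and to TGF-β signalling, in which ligands bind paired receptors that phosphorylate Smad proteins. The mature microRNAs of the mouse miR-21 genes are given here because the exosomes were named for them, written 5′ to 3′ from RefSeq with the seed (bases 2 to 8) in capitals. The labels do not say which arm or gene the neurons overexpressed.
mmu-miR-21a-5p: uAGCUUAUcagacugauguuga
mmu-miR-21a-3p: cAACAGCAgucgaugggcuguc
mmu-miR-21b: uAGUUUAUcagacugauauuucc
mmu-miR-21c: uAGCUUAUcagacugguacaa
The 5p arm of miR-21a and miR-21c share the seed AGCUUAU, whereas the seed of miR-21b is AGUUUAU. In the mouse build GRCm38.p6 the mature miR-21a-5p lies on the minus strand at chr11:86584120-86584141, inside the span of *Vmp1*, an autophagy gene whose transcript can run on into the microRNA. The arrays do not measure mature microRNA, so the miR-21 content of the PMs is not known from these data. *Vmp1* itself, named here for its position, had log2 signals of 11.19 and 11.53 with GFP exosomes and 10.91 and 11.59 with miR-21 exosomes, and the groups overlapped.

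The cells had the profile of macrophages on all 4 arrays. *Csf1r*, the receptor for the macrophage growth factor CSF1, had log2 signals of 15.45 and 16.28 with GFP exosomes and 16.63 and 16.27 with miR-21 exosomes. *Lyz2*, macrophage lysozyme, stood at 16.12 and 17.22 against 17.82 and 16.27, and *Adgre1*, which encodes F4/80, at 12.24 and 13.02 against 13.02 and 12.79. The groups overlapped for each of these genes, and none of 13 macrophage identity genes measured passed an unadjusted limma p of 0.05. Of the 12 arrays, miR-21 replicate 1 of this comparison had the lowest median correlation with the others (r across 18193 genes 0.420 to 0.542, median 0.517). The GFP arrays correlated with r = 0.785 and the miR-21 arrays with r = 0.478, and miR-21 replicate 2 resembled GFP replicate 1 (r = 0.757) more than its own replicate. Among the 4549 genes with the highest mean signal, 105 lay at least 4 log2 units below the other 3 arrays in miR-21 replicate 1, and 0 genes did so in any of the other 3 arrays. miR-21 replicate 2 held single low values of its own among macrophage genes. *Spi1*, the PU.1 transcription factor of myeloid cells, was at 8.73, 9.40 and 9.43 in the other arrays and 4.42 there. *C1qa*, chosen after its values were seen, was at 9.60, 9.75 and 9.90 and 5.19 there, while *C1qb* and *C1qc*, which encode the other chains of the same complement protein, had 16.88 and 12.33 in that array, within 1 log2 unit of the GFP means of 16.34 and 12.64. Results are therefore also given without single arrays.

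**Figure D1:**
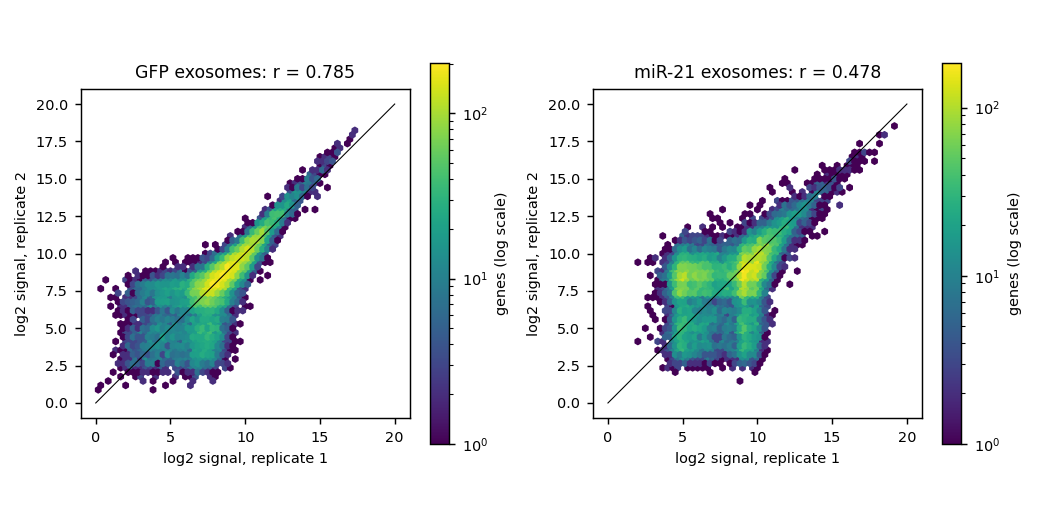
Log2 signal of each of 18193 genes in replicate 1 (x axis) and replicate 2 (y axis) of the GFP group (left) and the miR-21 group (right) of lipofectamine-treated PMs; colour gives the number of genes in each hexagon on a log scale, and the line marks equal signals. The GFP arrays correlated with r = 0.785 and the miR-21 arrays with r = 0.478, where many genes were high on one array and low on the other.

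Across the genome, the exosome pair gave no gene whose difference passed the adjustment for multiple testing. Group means were compared with limma on the log2 scale, as miR-21 minus GFP, with the spread pooled over all 6 groups of 2 arrays. Of 18193 genes, 0 had a Benjamini-Hochberg adjusted limma p under 0.05 (smallest 0.999). In simulated data that threshold found 0% of 200 genes changed by 4 log2 units. A count of 0 thus does not show that changes of that size are absent. The study's methods set a threshold of 0.05 with no adjustment named, and 698 genes (3.84%) passed it, 459 higher (2.52%) and 239 lower (1.31%) with miR-21 exosomes. Here "called" refers to that unadjusted threshold only. Both miR-21 arrays lay above both GFP arrays for 3568 genes (19.6%) and below them for 2877 (15.8%), 6445 in all (35.4%). Log2 fold changes had a median of −0.02 and an SD of 1.42 over genes, and 50.7% of genes were below 0. Between the replicates of a group, the SD over genes of the difference was 1.5 for GFP and 2.32 for miR-21. These are differences between single arrays, which vary more than differences between means of 2 arrays, so they are not like measures. With each array centred on its median signal, the median fold change of all genes moved to −0.48, and the calls turned from 459 higher and 239 lower to 286 higher and 465 lower. Without miR-21 replicate 1, 570 genes (3.13%) were called, 193 higher and 377 lower, and without miR-21 replicate 2, 1808, 663 higher and 1145 lower. Without GFP replicate 2, 391 were called, and without GFP replicate 1, 562 higher and 89 lower. Of the 698 genes, 86 remained called whichever of the 4 arrays was left out, 66 higher and 20 lower.

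The called genes were mostly dim ones. Of the 698, 588 (84.2%) lay below the median signal of all genes, and the 4549 brightest held 19 calls (0.418%), 2 higher and 17 lower. Genes called higher had median log2 signals of 4.61 and 3.92 on the GFP arrays and 9.12 and 8.0 on the miR-21 arrays. Genes called lower had medians of 8.19 and 8.23 on the GFP arrays and 5.04 and 5.08 on the miR-21 arrays. Both GFP arrays were under a log2 signal of 6 for 292 of the 459 genes called higher (63.6%), against 1186 of all genes (6.52%). Likewise, both miR-21 arrays were under 6 for 152 of the 239 genes called lower (63.6%), against 1177 of all genes (6.47%). Genes were called for a large group difference, which favours low values in the lower group, so these shares are a description. Such low values were spread differently over the arrays: 4470 genes were under 6 on miR-21 replicate 1, and 1177 of these (26.3%) on miR-21 replicate 2 also. The table holds no background or detection value to set beside signals of this size. In bulk samples, fewer cells of a type and less RNA per cell cannot be told apart.

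The 10 higher genes with the smallest p joined genes of unrelated roles, at 8 to 10 log2 units on both miR-21 arrays save for one value. *Large2*, a glycosyltransferase that extends the sugar chain of dystroglycan, had log2 signals of 2.76 and 2.86 with GFP exosomes and 9.12 and 8.01 with miR-21 exosomes, a log2 fold change of 5.76 (SE 1.05). *Trmt61a*, the catalytic subunit of a tRNA methyltransferase, stood at 4.20 and 4.22 against 8.79 and 8.75 (log2 fold change 4.56, SE 0.88). *C8g*, a chain of the terminal complement complex, stood at 2.93 and 2.32 against 9.80 and 8.24 (6.40, SE 1.24). For each of these genes the replicates of a group lay closer together than the groups did. *Cldn1*, the tight junction protein claudin-1, was at 1.95 and 2.24 against 8.70 and 8.30 (log2 fold change 6.40, SE 1.28), and *Dact3*, a modulator of Wnt signalling, at 3.78 and 3.77 against 9.24 and 8.91 (5.30, SE 1.05). All 4 probe sets of both genes were higher, over 0.49 to 6.40 log2 units for *Cldn1* and 1.18 to 5.30 for *Dact3*. The others were the serine protease family members *Prss54* and *Prss52*, the vomeronasal receptor *Vmn1r47* and the uncharacterised transcripts *4930533K18Rik* and *9030404E10Rik*, with log2 fold changes of 4.15 to 6.43. The lowest miR-21 value in the set was 7.66, of *Prss54* on replicate 2. The log2 fold change of *4930533K18Rik* was 6.43 on the probe set used and −0.40 on its other probe set. The adjusted limma p was 0.999 for all 10 genes.

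The 10 lower genes with the smallest p had varied roles, with mitochondrial proteins among them. *Fech*, ferrochelatase, which inserts iron into heme, had log2 signals of 9.99 and 9.96 with GFP exosomes and 5.64 and 5.83 with miR-21 exosomes, a log2 fold change of −4.24 (SE 0.88). Its 4 probe sets ran from −4.24 to 1.03. *Dld*, the dihydrolipoamide dehydrogenase subunit of the pyruvate dehydrogenase complex, stood at 9.76 and 9.63 against 4.77 and 6.80 (log2 fold change −3.91, SE 1.11), with its other probe set at 2.01. *Aldh1l2*, a mitochondrial enzyme of folate metabolism, stood at 8.30 and 8.23 against 4.62 and 4.04 (−3.94, SE 1.08), and *Osgepl1*, a mitochondrial tRNA-modifying enzyme, at 9.90 and 9.57 against 5.48 and 7.36 (−3.32, SE 0.91). The 4 probe sets of *Osgepl1* were all lower, from −3.32 to −1.02. *Mtch1*, an outer mitochondrial membrane protein, stood at 6.97 and 8.43 against 4.41 and 4.24 (−3.38, SE 0.88). Respiratory chain genes, a mitochondrial list, had 32 of 49 above 0 and a median of 0.20 (−0.10 to 0.32 without single arrays). *Il4*, the cytokine that drives alternative activation of macrophages and is made chiefly by other immune cells, stood at 8.34 and 8.24 against 5.22 and 4.81 (−3.27, SE 0.87). The remaining genes were the membrane-bending protein *Bin1* (log2 fold change −3.48, SE 0.86), the LIM domain protein *Fhl1* (−3.18, SE 0.87), the scaffold protein *Frmpd2* (−4.77, SE 1.33) and the secreted epithelial protein *Bpifb1* (−4.47, SE 1.25). Probe sets disagreed for several: those of *Bin1* reached 1.90, and the other one of *Fhl1* was 3.70. Of 89 genes called lower with more than 1 probe set, 20 (22.5%) had all probe sets lower, against 73 of 133 (54.9%) called higher with all higher and 3319 of 9010 genes (36.8%) with all probe sets in one direction.

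**Figure D2:**
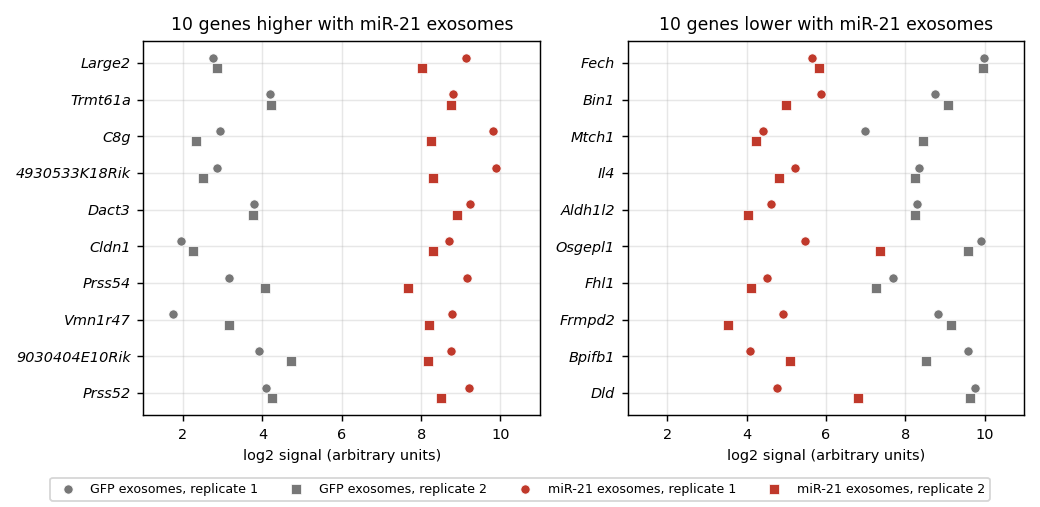
Log2 signal (x axis, arbitrary units) of the 10 genes higher (left) and the 10 lower (right) with miR-21 exosomes that had the smallest unadjusted p and non-overlapping groups; each point is an array, grey for GFP and red for miR-21, circles for replicate 1 and squares for replicate 2. The genes were picked for this separation, so it is a description: *Large2* lay at 2.76 and 2.86 against 9.12 and 8.01, and *Fech* at 9.99 and 9.96 against 5.64 and 5.83.

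Among well-expressed genes, differences were smaller and more of them were decreases. Among the 4549 brightest genes, the 5 higher genes with the smallest p were led by *Meg3*, an imprinted long noncoding RNA, at 7.07 and 8.24 with GFP exosomes and 12.08 and 11.80 with miR-21 exosomes (log2 fold change 4.28, SE 1.47). The adjusted limma p was 0.999, its 11 probe sets ran from −3.33 to 4.28, and it was not called without GFP replicate 1 or miR-21 replicate 1. *Calr3*, a calreticulin-like chaperone known from testis, stood at 9.30 and 10.39 against 12.46 and 11.32 (2.05, SE 0.89), and was not called without GFP replicate 1 or 2 or miR-21 replicate 1. *Bicra*, a chromatin remodelling subunit (1.82, SE 0.88), *Maged2*, a member of the MAGE family (1.62, SE 0.87), and *Uggt1*, which checks the folding of glycoproteins in the endoplasmic reticulum (1.70, SE 0.94), were not called, although both miR-21 arrays lay above both GFP arrays. On the lower side, *Lmnb1*, which encodes lamin B1 of the nuclear envelope, stood at 10.75 and 10.45 against 7.32 and 8.94 (−2.47, SE 0.86), and both its probe sets were lower. *Entr1*, an endosomal protein, stood at 10.38 and 11.46 against 5.27 and 9.10 (−3.73, SE 1.29), *Hook3*, an adaptor of dynein, at 10.95 and 10.13 against 7.32 and 8.91 (−2.42, SE 0.88). *Rbm43*, an RNA-binding protein, was at 9.95 and 10.05 against 6.30 and 8.43 (−2.64, SE 0.99), and *Arhgap29*, a GTPase-activating protein, at 10.43 and 10.22 against 6.25 and 9.19 (−2.60, SE 1.06). In all 5 of these lower genes miR-21 replicate 1 was the lowest array, and without it the log2 fold changes were −1.82 for *Entr1*, −1.66 for *Lmnb1*, −1.63 for *Hook3*, −1.57 for *Rbm43* and −1.13 for *Arhgap29*, none of them called.

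Of 22 measured genes that the study follows, 7 had a fold change above 0 and 15 below, with a median of −0.28 (−0.58 to −0.13 without single arrays). Those of the TGF-β pathway gave no called difference, and their lowest fold changes came from a single array. *Tgfbr2*, the ligand-binding receptor, had log2 signals of 11.08 and 11.57 with GFP exosomes and 11.66 and 11.36 with miR-21 exosomes (log2 fold change 0.18, SE 1.06), and *Tgfbr1*, its signalling partner, 11.05 and 10.98 against 10.42 and 10.56 (−0.52, SE 0.91). *Tgfb1*, the ligand, stood at 7.85 and 8.82 against 7.12 and 9.18 (−0.19, SE 1.65). Each difference was smaller than its standard error, and the groups overlapped for *Tgfbr2* and *Tgfb1*. *Smad7*, an inhibitor of the receptors, was at 10.61 and 9.62 against 4.26 and 9.48 (−3.24, SE 1.46, just short of a call), *Smurf2*, a ubiquitin ligase that works with it, at 10.19 and 9.40 against 5.33 and 9.84 (−2.21, SE 1.28), and *Tgfbr3*, the coreceptor betaglycan, at 9.58 and 9.35 against 5.0 and 9.77 (−2.08, SE 1.43). In each of the 3 genes miR-21 replicate 1 stood more than 4 log2 units below every other array, and without it the log2 fold changes were −0.63, 0.05 and 0.30. The transducer *Smad4*, shared by the TGF-β and BMP branches, had −0.53 (SE 0.85), *Smad5*, of the BMP branch, −1.45 (SE 1.19), the BMP receptor *Bmpr2* −0.31 (SE 0.91), *Nfya*, a subunit of the transcription factor NF-Y, 0.34 (SE 1.21), and *Tnfrsf19*, an orphan member of the TNF receptor family, −0.06 (SE 1.82). Probe sets of *Tgfbr2* ran from 0.18 to 1.73 and those of *Nfya* from 0.34 to 4.62, all higher. Those of *Smad4* ran from −0.82 to −0.53 and those of *Bmpr2* from −2.65 to −0.31, all lower. Those of *Smad7*, *Smurf2* and *Tgfbr3* were also all lower. For *Tgfbr1*, *Tgfb1*, *Smad5* and *Tnfrsf19* they lay on both sides of 0. Over a wider list of 30 measured ligands, receptors and Smads, 12 had a fold change above 0 and 18 below, with a median of −0.33 on the log2 scale against −0.02 for all genes. The median ran from −0.56 without miR-21 replicate 2 to 0.05 without replicate 1. A single member was called (3.33% of the list, against 3.84% of all genes): *Tgfb3*, a ligand, at 3.14 and 2.69 against 8.65 and 4.59 (3.70, SE 1.56), and 1.68 and not called without miR-21 replicate 1. *Tgfb2*, the third ligand, stood at 10.77 and 9.96 against 4.47 and 10.42 (−2.92, SE 1.63), and *Smurf1*, another ubiquitin ligase, at 8.96 and 3.35 against 9.36 and 8.86 (2.96, SE 1.60).

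Inflammatory cytokines had fold changes on both sides of 0, and none passed an adjusted p. *Il6*, the acute-phase cytokine, was the one gene of 22 measured genes of the study that was called, and it was lower: 8.59 and 7.95 with GFP exosomes against 4.69 and 4.32 with miR-21 exosomes, a log2 fold change of −3.76 (SE 1.61). The adjusted limma p was 0.999. It was no longer called whichever of the 4 arrays was left out, with fold changes of −3.45 to −4.08. The same comparison after scramble gave 3.06 and after antagomir-21 −2.11, and the difference between lipofectamine and scramble had a limma p of 0.013 (adjusted p = 1.0). That contrast includes the lipofectamine difference for which *Il6* was singled out, so it is no independent test. *Nos2*, the inducible nitric oxide synthase, stood at 7.30 and 7.49 against 5.10 and 5.55 (−2.07, SE 1.30), lower on both arrays but not called. *Tnf* was at 7.58 and 7.66 against 9.70 and 3.94 (−0.80, SE 1.80), so that the miR-21 arrays lay on either side of the GFP arrays. *Il10*, the anti-inflammatory cytokine, had 0.63 (SE 1.67), *Ccl2*, a monocyte chemoattractant, −0.24 (SE 0.92), its receptor *Ccr2* 0.04 (SE 1.26), and *Rela*, an NF-κB subunit, 0.53 (SE 1.11). The 4 probe sets of *Ccr2* were all higher, from 0.04 to 2.28. Among markers of alternative activation, *Mrc1*, the mannose receptor CD206, stood at 11.49 and 11.84 against 11.79 and 11.23 (−0.16, SE 0.90), *Arg1*, arginase, at 10.90 and 11.91 against 12.57 and 11.15 (0.46, SE 0.97), and *Chil3*, a chitinase-like protein, at 6.98 and 7.48 against 9.01 and 7.98 (1.26, SE 1.06). Over 21 proinflammatory genes, 10 were above 0 and 11 below (median −0.17, and −0.43 to 0.19 without single arrays), and 3 were called, where 3.84% of all genes were. Beside *Il6* these were *Lif*, a cytokine of the same family, at 7.50 and 7.56 against 4.91 and 4.89 (−2.63, SE 1.0), and *Il23a*, a subunit of interleukin-23, at 5.98 and 3.48 against 9.0 and 7.66 (3.59, SE 1.42). The second probe set of *Lif* was 1.73. Both lost the call when arrays were left out, *Lif* for each of the 4 and *Il23a* without GFP replicate 2 (log2 fold change 2.34) or miR-21 replicate 1 (2.92).

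**Figure D3:**
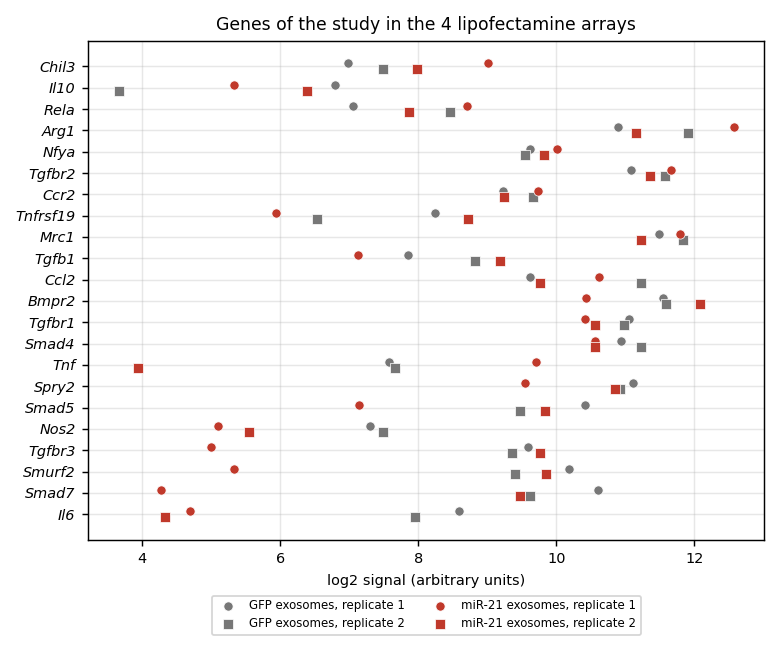
Log2 signal (x axis, arbitrary units) of the 22 measured genes of the study, ordered by fold change from highest to lowest; each point is an array, grey for GFP and red for miR-21, circles for replicate 1 and squares for replicate 2. *Il6* (7.95 to 8.59 against 4.32 to 4.69) was the only called gene, and *Smad7*, *Smurf2* and *Tgfbr3* show the miR-21 replicate 1 array alone at 4.26 to 5.33.

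Known targets of miR-21 had fold changes on both sides of 0. Of 30 measured, 13 had a fold change above 0 and 17 below, 0 were called, and the median was −0.14 on the log2 scale against −0.02 for all genes. The value depended on the array: the median was 0.07 without miR-21 replicate 1 and −0.67 without replicate 2. *Pdcd4*, a translation inhibitor, is named outside the rule for naming genes, as a known target. It had log2 signals of 12.73 and 13.16 with GFP exosomes and 11.55 and 12.29 with miR-21 exosomes (log2 fold change −1.03, SE 0.84), so both miR-21 arrays were lower. Both miR-21 arrays lay below both GFP arrays for 6 of the 30 targets and above them for 5, where 15.8% and 19.6% of all genes did. *Spry2*, an inhibitor of ERK signalling, stood at 11.12 and 10.92 against 9.55 and 10.85 (−0.82, SE 0.93), with miR-21 replicate 2 next to the GFP arrays. Its relative *Spry1* went the other way, at 6.47 and 6.20 against 9.57 and 7.95 (2.43, SE 1.25). *Nfib*, a transcription factor, was at 9.28 and 10.55 against 5.06 and 9.66 (−2.55, SE 1.63), and *Cdc25a*, a cell cycle phosphatase, at 7.94 and 8.58 against 10.03 and 9.68 (1.59, SE 1.17). The adjusted limma p was 0.999 for each.

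Other pathways held few called genes, but genes were not matched for signal. The 41 lists of pathways and cell types covered 794 distinct measured genes. Of these, 18 (2.27%) were called, 12 higher and 6 lower, below the 3.84% of all genes. The 669 pathway genes held 13 (1.94%) and the 149 cell type genes 5 (3.36%). Calls became rarer as signal rose: the 4549 dimmest genes held 312 higher and 76 lower, and the 4549 brightest 2 and 17. Median log2 signals of pathway lists ran from 7.22 for chemokine receptors to 12.69 for ribosomal protein genes, most above the 7.91 of all genes. Whether the lists differed from genes of equal signal was not tested. The largest shift among pathway lists was that of efferocytosis and scavenger receptors, with 16 of 23 genes below 0 and a median of −0.51, and −0.09 without miR-21 replicate 1 and −0.13 without GFP replicate 2. For lysosomal genes, the median was 0.18 over 33 genes, with mean log2 signals of 11.86 and 12.42 on the GFP arrays and 12.82 and 11.92 on the miR-21 arrays, and it turned to −0.32 without miR-21 replicate 1 and −0.18 without GFP replicate 1, and was 0.71 without miR-21 replicate 2. Ribosomal protein genes had 26 of 38 above 0 and a median of 0.17, which ran from −0.18 to 0.56 without single arrays, and MHC class II presentation genes a median of 0.46 over 15 genes, from −0.16 to 0.96. With each array centred on its median, the medians of the lysosomal and ribosomal lists were −0.28 and −0.29, against −0.48 for all genes.

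Single called members of these lists had varied roles. *Ccr10*, a chemokine receptor, had log2 signals of 3.43 and 2.90 with GFP exosomes and 9.72 and 7.35 with miR-21 exosomes (log2 fold change 5.37, SE 1.47), and *Atg2b*, a lipid transfer protein of autophagosome formation, 3.80 and 4.4 against 9.08 and 8.17 (4.52, SE 1.09). *Dgat1*, which makes triglycerides, was at 4.36 and 6.69 against 10.60 and 8.80 (4.18, SE 1.48). *Ccr10* and *Atg2b* stayed called whichever array was left out, and *Dgat1* did not. The interferon-stimulated genes *Mx2* (2.31 and 4.05 against 6.28 and 6.28) and *Oasl1* (6.68 and 5.76 against 9.05 and 8.56) were called higher among 34 genes, where 3.84% of all genes were called, with a median of 0.15, which ran from −0.18 to 0.59 without single arrays; *Mx2* lost its call without GFP replicate 1 and *Oasl1* whichever array was left out. Lower genes were *Fdps*, of cholesterol synthesis, at 9.11 and 9.43 against 7.0 and 3.72 (−3.91, SE 1.46), *Pdia4*, a protein disulfide isomerase, at 8.75 and 8.75 against 6.74 and 3.76 (−3.50, SE 1.28), *Cdk1*, the mitotic kinase, at 8.11 and 8.79 against 6.61 and 4.0 (−3.14, SE 1.08), and *Rfx5*, a regulator of MHC class II genes, at 9.52 and 9.82 against 7.65 and 7.41 (−2.14, SE 0.92), called only with all 4 arrays. For *Fdps*, *Pdia4* and *Cdk1* it was miR-21 replicate 2 that stood lowest, and without it the fold changes were −2.27, −2.01 and −1.84 and no longer called. The other probe sets of *Dgat1* and *Fdps* were of opposite sign, at −2.33 and 2.29, and those of *Atg2b* reached −3.14.

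**Figure D4:**
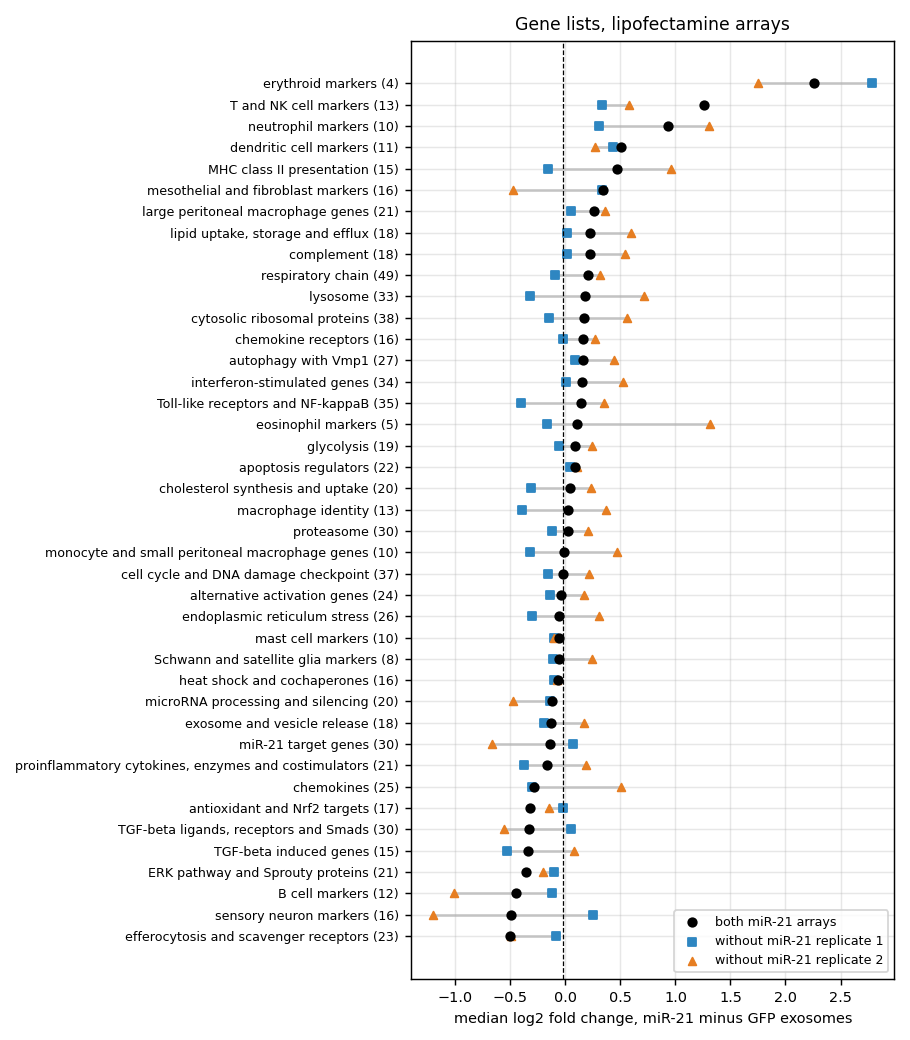
Median log2 fold change, miR-21 minus GFP exosomes (x axis), of 41 gene lists in lipofectamine-treated PMs, with the number of measured genes in parentheses; black circles use all 4 arrays, blue squares leave out miR-21 replicate 1 and orange triangles leave out miR-21 replicate 2, and the dashed line is the median of all genes (−0.02). For lists such as lysosome (−0.32 and 0.71) and miR-21 target genes (0.07 and −0.67) the medians without either array lay on opposite sides of 0.

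Markers of other cells that could accompany PMs or neuronal exosomes are described next. Of 105 such genes measured, 5 (4.76%) were called, all higher, where 3.84% of all genes were called and 2.52% were called higher. Calls also varied with signal: the 4549 dimmest genes held 312 called higher and had a median log2 fold change of 0.50. The 5 called markers lay between the percentiles 6.0 and 31.4 of mean signal over all genes. All 4 measured erythroid markers had a fold change above 0, with a median of 2.26 (1.63 to 3.29 without single arrays). Their mean log2 signals were 5.97 and 4.48 with GFP exosomes and 7.28 and 8.0 with miR-21 exosomes. *Klf1*, the erythroid transcription factor, was called, at 5.29 and 3.32 against 9.68 and 7.76 (4.41, SE 1.84), and *Alas2*, which starts heme synthesis in red cell precursors, stood at 4.64 and 3.45 against 6.14 and 8.0 (3.03, SE 1.67). The groups overlapped for *Slc4a1* (7.99 and 5.03 against 7.92 and 8.08) and *Hba-a1* (5.95 and 6.10 against 5.39 and 8.15). The list rests on few genes of low signal, and *Klf1* lost its call without GFP replicate 2 or miR-21 replicate 1. Of 13 T and NK cell genes, 7 were above 0 and 6 below (median 1.26, and −0.27 to 2.21 without single arrays). Their mean log2 signals of 7.28 and 5.66 against 6.75 and 7.14 overlapped. *Cd6*, a T cell surface receptor, and *Gzma*, a granzyme of cytotoxic cells, were called. *Cd6* was at 3.85 and 4.31 against 7.33 and 9.0 (4.09, SE 1.08), and *Gzma* at 6.43 and 4.70 against 8.47 and 7.81 (2.58, SE 1.01, and 1.71 without GFP replicate 2). *Thy1*, of the same list, went the other way, at 8.10 and 7.76 against 6.28 and 3.02 (−3.29, SE 1.86), and was not called. Among 12 B cell genes, 9 were below 0 (median −0.45, and −1.02 to −0.13 without single arrays) and *Pax5*, the B lineage transcription factor, was called higher, at 3.55 and 3.95 against 7.94 and 7.83 (4.14, SE 1.54), although not when any array was left out. Of 16 mesothelial and fibroblast genes, 9 were above 0 and 7 below (median 0.34, and −0.48 to 0.71 without single arrays). *Lum*, a matrix proteoglycan of fibroblasts and the one called, stood at 6.81 and 2.54 against 9.05 and 8.53 (4.12, SE 1.79), and it was not called without GFP replicate 2 (1.98) or without either miR-21 array. Other fibroblast genes had negative log2 fold changes that were not called, −1.13 for the collagen gene *Col3a1*, −0.74 for the proteoglycan *Dcn* and −1.60 for the growth factor receptor *Pdgfra*, and those of *Col3a1* and *Pdgfra* were 1.18 and 0.03 without miR-21 replicate 1. Neutrophil genes had 9 of 10 above 0 (median 0.93, and 0.30 to 1.30 without single arrays) with 0 called, and mean log2 signals of 7.32 and 7.18 against 8.31 and 7.71. Of 16 sensory neuron markers, 7 were above 0 and 9 below, with a median of −0.50 and 0 called. Their mean log2 signals were 8.17 and 6.71 against 6.45 and 7.63, so the groups overlapped, and the median ran from −1.20 to 0.49 without single arrays. *Trpv1*, the capsaicin receptor of nociceptors, was at 6.40 and 6.62 against 4.84 and 2.93 (−2.62, SE 1.23). The part of other cells in the results above was not tested.

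The same pair of exosomes was compared after scramble and after antagomir-21, on arrays that do not enter the lipofectamine difference, although the pooled spread is common to all. Of the 10 highest genes, 7 were above 0 after scramble and 4 after antagomir-21, and of the 10 lowest, 6 were below 0 in each. *Prss52* had log2 fold changes of 4.70 with lipofectamine, 4.14 after scramble and 3.10 after antagomir-21, and *Vmn1r47* had 6.03, 3.62 and 2.70. Others were far apart: *Large2* had 5.76, 0.50 and 1.19, *Trmt61a* 4.56, 0.84 and −2.40, *9030404E10Rik* 4.15, −1.28 and −3.68, and *Fech* −4.24, −0.19 and 0.00. Over all called genes, 299 of the 459 higher ones (65.1%) were above 0 after scramble, where 51.4% of all genes were, and 238 (51.9%) after antagomir-21, where 47.3% of all genes were. All genes are no matched baseline, since the called genes were mostly dim. Of the 4549 dimmest genes, 1706 were below 0 after scramble and 1951 after antagomir-21. Their median log2 fold changes were 0.62 and 0.325, against 0.04 and −0.08 for all genes. Of the 239 called lower, 113 (47.3%) were below 0 after scramble and 107 (44.8%) after antagomir-21, against 48.6% and 52.7% of all genes. The fold changes of the lipofectamine comparison correlated across 18193 genes with r = 0.121 with those after scramble and r = −0.011 with those after antagomir-21, as a description, since genes are not independent. Tested directly, the exosome difference differed between lipofectamine and scramble for 692 genes (3.8%) at an unadjusted limma p under 0.05 and between lipofectamine and antagomir-21 for 878 genes (4.83%), and for 0 genes in either test at an adjusted p (smallest 1.0 and 0.669). No gene was thus shown to respond to the exosomes in a way particular to cells without oligonucleotide. Among the named genes, *Trmt61a* and *9030404E10Rik* had the smallest unadjusted limma p against antagomir-21, 2.0e-04 and 1.0e-04. Both genes were chosen by the lipofectamine difference that is part of this contrast, so these p-values are a description only.

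**Figure D5:**
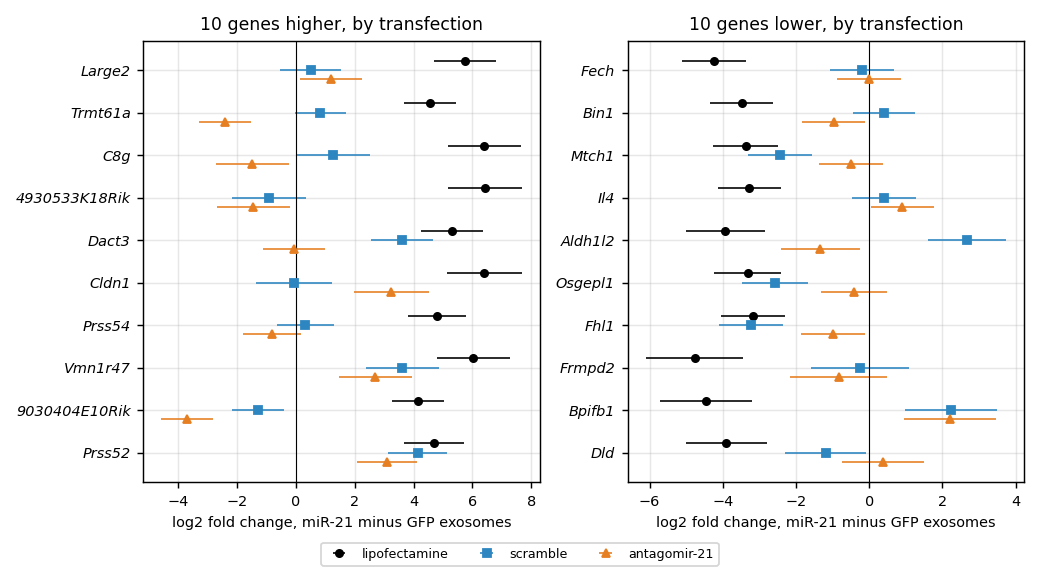
Log2 fold change of miR-21 minus GFP exosomes (x axis) with its standard error (bars, limma) for the 10 higher (left) and 10 lower (right) genes chosen in the lipofectamine arrays, shown in the lipofectamine (black circles), scramble (blue squares) and antagomir-21 (orange triangles) arrays, 2 against 2 arrays each. *Prss52* and *Vmn1r47* were above 2 in all 3 transfections, whereas *Fech* was at −4.24, −0.19 and 0.00.

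A small set of genes was called in the same direction in every transfection. Of the 459 genes called higher with lipofectamine, 162 (35.3%) were above 0 in both other transfections, where 25.3% of all genes were. These shares were not matched for signal, and dim genes leaned upward in both other transfections. Of the 239 called lower, 54 (22.6%) were below 0 in both, where 26.5% of all genes were. The comparison after scramble called 1037 genes (5.7%) and that after antagomir-21 1033 (5.68%). Of the 698 genes called with lipofectamine, 103 were also called after scramble (14.8% of the former and 9.93% of the latter), 70 of them in the same direction, and 103 after antagomir-21, 50 in the same direction. In all 3 comparisons 30 of 18193 genes were called, 12 of them in the same direction, 10 higher and 2 lower, and the rest in differing directions. The pooled spread of a gene is common to the 3 comparisons, so their calls are not independent. How many shared calls unrelated comparisons would give was not tested. These 12 were selected after their values were seen and are described with no test. *Prss52* lay between 6.27 and 9.21 on the 6 miR-21 arrays of the series and between 3.01 and 5.06 on the 6 GFP arrays. *Cd6* lay between 5.79 and 9.0 against 3.08 and 4.31, and had log2 fold changes of 4.09, 4.45 and 3.58 with lipofectamine, after scramble and after antagomir-21. *Gzmc*, another granzyme, lay between 6.35 and 9.61 against 4.10 and 5.18, with 4.08, 2.78 and 3.06. For these genes no GFP array reached any miR-21 array. *Gzma* had 2.58, 2.46 and 4.46, but its GFP arrays reached 6.43 and its miR-21 arrays went down to 5.50. *Sema5b*, an axon guidance protein, had 3.46, 5.04 and 3.46, with −0.72 on its other probe set in the lipofectamine arrays. *Wnt4*, a secreted Wnt ligand, had 2.78, 2.82 and 3.41, and both its probe sets were higher. The others that were higher were the cardiac myosin *Myh6*, the apolipoprotein L gene *Apol6*, the hair keratin-associated gene *Krtap15* and the lipocalin *Lcn11*, and the 2 lower were *Eqtn*, a sperm membrane protein (−2.79, −3.40 and −3.31), and *Mpv17l2*, a mitochondrial membrane protein (−2.65, −2.99 and −3.33). *Prss52*, *Cd6*, *Gzmc* and *Sema5b* stayed called in the lipofectamine arrays whichever of these was left out, and the other 8 did not. All 12 were dim: the brightest, *Wnt4*, stood at the percentile 28.0 of mean signal over all genes.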

How the data were processed

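RNA of PMs was hybridised to Affymetrix mouse arrays, 2 for each of 6 groups named by the labels, where the methods speak of 3 replicates. The values deposited by the authors are log2 signals of probe sets. The methods name RMA with quantile normalization, but the deposited values share a trimmed mean on the linear scale (496 to 499 with 2% removed at each end) and not a distribution, so their software is not known here; array signal over background is unknown, and the number of arrays limits the precision. Of 45037 probe sets, 34945 had 1 gene symbol, 932 several and 9160 were not listed in the platform annotation; symbols of 34741 were updated by gene ID. A gene was read from its brightest probe set by the mean of the 12 arrays, for 18193 genes (9010 had several). limma 3.58.1 under R 4.3.3 fitted 6 group means (lmFit, eBayes, 6 residual degrees of freedom, Benjamini-Hochberg over all genes). It was tried on simulated data with 200 changed genes and the spread of each gene in these arrays. An adjusted p under 0.05 found 0% of genes changed by 2 or 4 log2 units and 38.7% of those changed by 6. An unadjusted p under 0.05 found 39.6%, 74% and 92.2%. Genes were named as the 10 of smallest p each way with non-overlapping groups, the 5 each way among the 4549 brightest genes, the genes of the study, macrophage genes and up to 4 members of each list described, with exceptions stated. The members and lists were chosen with earlier results of these data known. Alternatives were quantile normalization, median centring, a filter on dim genes, all probe sets, other estimates of spread, an unpaired test, the replicate number as a block and leaving out each array. Correlations of same-numbered arrays after removal of group means ran from −0.192 to 0.167 in 15 pairs of groups.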

Additional observations from a re-analysis of the deposited data

How the results depend on the processing

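No gene passed an adjusted p under 0.05 under any alternative, including the unpaired test on the 4 arrays alone (smallest adjusted p 0.278 among 939 genes at an unadjusted p under 0.05, 494 higher and 445 lower); the cause of the changes below was not tested. Tests among genes above the median signal, which hold fewer genes, called 211 (84 higher, 127 lower), and 227 and 226 for the differences from scramble and antagomir-21. Median centring gave 286 higher and 465 lower, and the lipofectamine arrays alone in limma 446 lower. Leaving out single arrays gave 391 to 1808 calls, 193 to 663 higher and 82 to 1145 lower, and 437 to 1409 and 607 to 1735 for the differences from scramble and antagomir-21. Same-numbered arrays did not deviate together (r = −0.096 between the lipofectamine groups). The labels do not say whether such arrays share an animal, a culture or a day, and this correlation cannot decide it. Replicates of these groups correlated with r = 0.785 and 0.478, a spread that could hide a shared part. The replicate block gave 717 calls, 495 higher and 222 lower.

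Among the genes named above that changed sign, *Fhl1* was the only called one. With the mean of all probe sets the log2 fold changes were 0.26 for *Fhl1*, −0.56 for *Maged2*, 0.46 for *Pdgfra*, 0.23 for *Smad5*, 0.32 for *Tgfb1* and 0.33 for *Tnfrsf19*. With median centring they were −0.19 for *Adgre1*, −0.0055 for *Arg1*, −0.28 for *C1qc*, −0.42 for *Ccr2*, −0.082 for *Lyz2*, −0.12 for *Nfya* and −0.28 for *Tgfbr2*. With quantile normalization they were −0.17 for *Ccr2*, −0.060 for *Lyz2*, 0.059 for *Mrc1*, 0.32 for *Tnfrsf19* and 0.085 for *Vmp1*. Leaving out single arrays gave −0.12 to 0.67 for *Adgre1*, −0.25 to 1.17 for *Arg1*, −1.13 to 0.51 for *Bmpr2*, −4.48 to 0.22 for *C1qa*, −0.39 to 0.75 for *C1qc*, −1.05 to 0.56 for *Ccl2*, −0.20 to 0.29 for *Ccr2*, −3.43 to 1.18 for *Col3a1*, −0.94 to 2.20 for *Il10*, −0.40 to 1.16 for *Lyz2*, −0.44 to 0.12 for *Mrc1*, −3.23 to 0.033 for *Pdgfra*, −0.17 to 1.24 for *Rela*, −4.47 to 0.046 for *Smurf2*, −4.65 to 0.37 for *Spi1*, −1.22 to 0.84 for *Tgfb1*, −5.90 to 0.054 for *Tgfb2*, −0.064 to 0.43 for *Tgfbr2*, −4.47 to 0.30 for *Tgfbr3*, −3.68 to 2.08 for *Tnf*, −1.45 to 1.33 for *Tnfrsf19* and −0.45 to 0.23 for *Vmp1*. Of 54 named genes called, 25 stayed called whichever array was left out.

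With 2 arrays against 2, an exact 2-sided permutation test cannot give a p below 0.333.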
